A study of Mus musculus with 16 samples.

Results

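The genes described here carry the insulin signal in muscle from the receptor to glucose uptake and glycogen. They are Insr, Irs1, Irs2, Pik3r1, Akt2, Tbc1d4, Slc2a4, Gys1, Pygm and Gsk3b, chosen by name for their place in this pathway. No measured value was a rule of the choice, but earlier results of these data were known when it was made. All 10 were on the array, through 20 of its 55681 non-control probes, and all 20 probes were among the 19812 (15597 gene names) that were bright enough to test over the whole-muscle and polysome arrays. The mice were Eif6 heterozygotes (Het) and wild-type (WT) male littermates on a C57BL6 background, 8 to 16 weeks old and fed chow freely, with 3 mice per genotype. Het mice carry 1 inactive copy of Eif6, a ribosome assembly and translation initiation factor, in every tissue. From the gastrocnemius, a calf muscle, total RNA was taken from the whole tissue, and a sucrose gradient separated polysomes (messages holding several ribosomes) from monosomes (a single ribosome). There were 6 groups: WT and Het whole muscle (3 arrays each), WT and Het polysomes (3 each), and WT and Het monosomes (2 each, from mice 1 and 2 for WT and mice 1 and 3 for Het). The design asked whether loss of 1 Eif6 copy changes how messages are loaded on polysomes.

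Insulin binds its receptor on the muscle fibre, the receptor phosphorylates the adaptor proteins IRS1 and IRS2, and these recruit PI3-kinase, which activates the kinase AKT2. AKT2 phosphorylates TBC1D4, which otherwise keeps vesicles holding the glucose transporter GLUT4 (the Slc2a4 product) inside the cell, and it also inhibits GSK3B, which otherwise holds glycogen synthase (GYS1) in its less active form. Muscle takes up most of the glucose cleared after a meal by this route and stores it as glycogen, which phosphorylase (PYGM) breaks down again during contraction. Most of this control acts on proteins. RNA arrays measure only how much message was present, and loading, the log2 difference between the polysome and the whole-muscle array of 1 mouse, how far it was enriched on polysomes.

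Each gene was read by probes of 60 bases, and the results below turn on where a probe sits in its message. Printed here, with positions on the mm9 build, are 4 member probes taken as coding from an open reading frame across the probe. A frame can be open over 60 bases without coding, and no coding annotation was used to check them. They are called coding probes below on that basis alone. Of them, 3 pair with a probe nearer the 3′ end of the same gene that gave different values, and the other is the single Irs2 probe. No part of these sequences is marked by capitals.
Akt2, A_55_P2066523, chr7:28418226-28418285, plus strand: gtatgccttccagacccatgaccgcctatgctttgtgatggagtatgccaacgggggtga
Gsk3b, A_51_P514412, chr16:38187987-38191632, plus strand, joined over an intron: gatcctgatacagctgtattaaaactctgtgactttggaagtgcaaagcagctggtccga
Irs2, A_66_P102260, chr8:11004490-11004549, minus strand: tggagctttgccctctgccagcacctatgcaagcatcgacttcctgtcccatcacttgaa
Tbc1d4, A_52_P381430, chr14:101878355-101878414, minus strand: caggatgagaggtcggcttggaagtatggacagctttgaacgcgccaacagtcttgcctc

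The poly(A) signal hexamer AATAAA was present in 5 of the 20 member probes (25%) against 10.1% of all 55681 probes, and its reverse complement TTTATT was in 0 of 20 against 3.74%. A match is only a description of these letters. Each gene is described by its brightest tested probe (highest mean over the 12 whole-muscle and polysome arrays). All values are log2 signal after quantile normalization, so a difference of 1 is a doubling, and levels of different probes are not compared with each other.

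The targeted gene followed the labels. Eif6 measured 9.55 ± 0.36 (SD, n = 3) in WT whole muscle and 8.63 ± 0.11 (n = 3) in Het, and 10.59 ± 0.38 in WT polysomes and 9.29 ± 0.12 in Het, with no overlap between genotypes in either RNA kind. The differences of -0.92 and -1.31 had limma adjusted p = 0.360 and 0.193. In single arrays 23.5% to 45.9% of spots were well above background, and brightness (the 75th percentile of signal) ran from 12.7 to 150 units. The skeletal fibre markers (7 of 7 genes) were well above background in every group. Their mean log2 level spanned 15.13 to 15.34 in WT whole muscle, 14.98 to 15.15 in Het whole muscle, 14.10 to 14.56 in WT polysomes and 14.77 to 14.99 in Het polysomes, so the WT polysome arrays lay lowest. Adipocyte markers (6 of 7 tested, all 6 well above background) spanned 7.90 to 9.34, 8.41 to 9.39, 9.14 to 10.20 and 9.40 to 9.75 in the same order. Of the 5 liver markers, Alb, Apoa1 and Ttr were not bright enough to test, and G6pc and Pck1 were well above background on every array of the 4 groups, with a mean of 5.96 to 6.96. In such bulk RNA, fewer cells of a type and less RNA per cell cannot be told apart.

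Along the length of a message 2 arrays stood apart. The median difference between a 5′ and a 3′ probe of the same transcript, over 1200 pairs, lay between -1.35 and -0.79 on 14 arrays. WT polysome 2 gave 0.58 and WT monosome 2 gave 0.80. Among the member transcripts the same was seen in 5 of the 6 with at least 2 probes on 1 transcript. For Gsk3b, with probes 6134 bases apart, the difference was -2.90 to -0.51 on the other 14 arrays, 2.06 on WT polysome 2 and 2.74 on WT monosome 2. For Tbc1d4, the 14 arrays spanned -4.55 to -1.79 and the same 2 arrays gave 0.44 and 3.63. The 5′ Tbc1d4 probe was well above background on 0 monosome and 0 Het whole-muscle arrays, and the 3′ probe on 1 of 2 WT monosome arrays. The value of 3.63 is therefore not an exact size. Insr (-3.80 to -0.07 against 0.26 and 2.29), Irs1 (-5.20 to -2.89 against -1.17 and -1.20) and Akt2 (-5.95 to -4.23 against -4.04 and -2.99) did the same, and Gys1, whose probes lie 632 bases apart, did not (-5.19 to -1.57 against -3.04 and -2.93). The 5′ Insr probe was also well above background on 0 monosome and 0 Het whole-muscle arrays, so 2.29 and -3.80 (Het whole muscle 1) are not exact sizes. WT polysome 2 and WT monosome 2 come from WT mouse 2, and the results they move most are given with and without them. The arrays that stand apart, as left out below, are these 2 and Het whole muscle 2, which held 1 very bright Pik3r1 spot. That choice was made after seeing the data. WT polysome 2 correlated with WT polysome 1 and 3 at r = 0.891 and 0.915 over tested probes, and WT monosome 2 with WT monosome 1 at 0.782, where the other replicate pairs lay between 0.940 and 0.987.

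**Figure D1:**
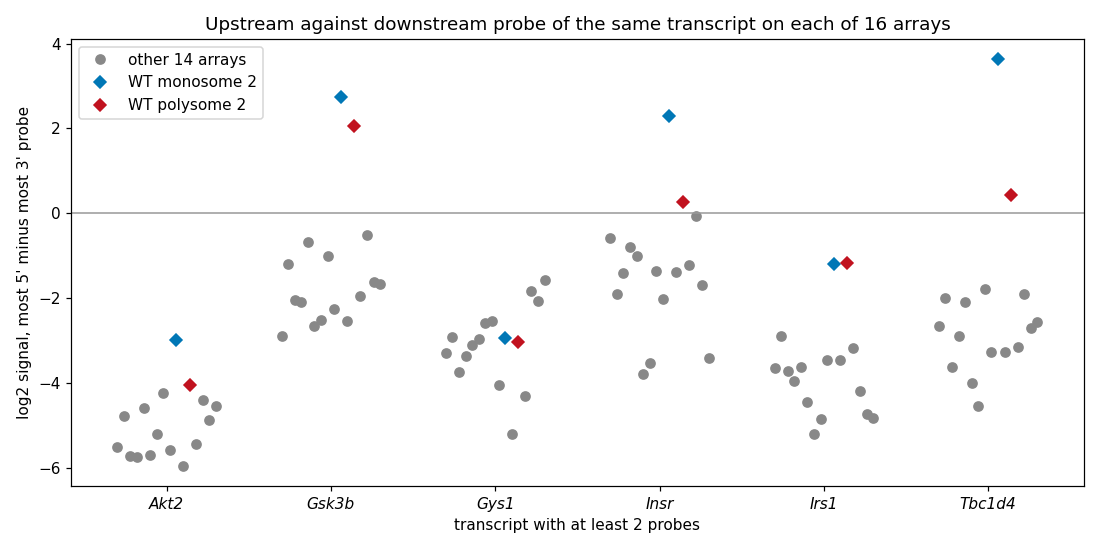
For the 6 member transcripts with at least 2 probes, the log2 signal of the most 5′ probe minus that of the most 3′ probe on each of the 16 arrays. WT polysome 2 and WT monosome 2 lie above all other arrays for Akt2, Gsk3b, Insr, Irs1 and Tbc1d4, but not for Gys1.

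Slc2a4, Gys1 and, in WT, Irs2 were higher in polysomes than in whole muscle of the same mice, and none of the 10 genes passed the adjusted threshold between genotypes. In WT muscle 3 of 10 genes were called (adjusted p under 0.05, limma on the per-mouse ratios), against 21.1% of all tested probes. In Het muscle 2 of 10 were called, against 7.33%. The median difference of the 10 was 0.47 in WT and 0.31 in Het, and over all tested genes it was 0.07 and 0.14. By the threshold named in the methods (unadjusted p under 0.05 and a log2 difference beyond 1) 2 genes passed in WT, against 20.8% of probes, and 1 in Het, against 13.7%. Of the 10 other member probes, 2 were called in WT with all arrays (1 higher, 1 lower) and 6 without the arrays that stand apart (1 higher, 5 lower), where 19% of all probes were called, and 0 in Het either way. Among those 5, Insr A_55_P2172566 and Tbc1d4 A_52_P381430 were tested only because WT whole muscle, where they were higher, was well above background. The count of lower probes is therefore partly set by the filter.

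**Figure D2:**
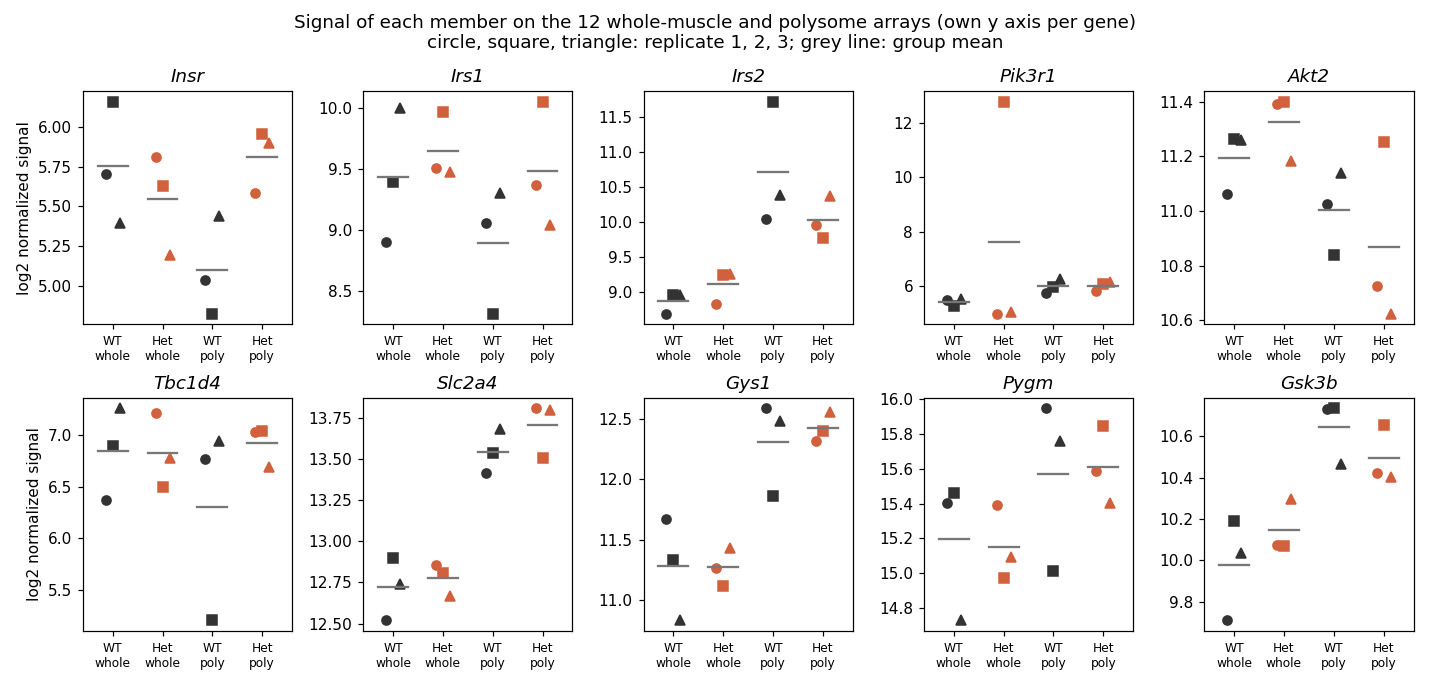
Log2 signal of the brightest probe of each of the 10 genes in WT and Het whole muscle and polysomes, with replicates 1, 2 and 3 as circle, square and triangle and the group mean as a grey line. Slc2a4 and Gys1 lay higher in polysomes than in whole muscle of every mouse, and the Pik3r1 spot of Het whole muscle 2 (12.80) stood far from the other 11 arrays (4.96 to 6.24).

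Between genotypes, 0 of 10 genes were called in whole muscle (0.0101% of all probes were), 0 of 10 in polysomes (0%) and 0 of 10 in loading (0%), and the methods' t-test with adjustment also called 0 in each. At unadjusted p under 0.05 these counts were 0, 1 (Insr) and 0, against 8.45%, 15.2% and 16.9% of probes. By the methods' threshold 0 genes passed in any of them, against 5.63%, 5.75% and 13.9% of probes. The 3 Het and 3 WT values did not overlap for 0 genes in whole muscle (13.5% of probes), 1 in polysomes (Insr, 21.8%) and 1 in loading (Irs2, 25.3%). The median differences of the 10 genes were 0.09, 0.08 and 0.09, against -0.01, 0.04 and 0.14 over all tested genes. With 3 mice against 3, the smallest exact 2-sided permutation p is 0.1.

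**Figure D3:**
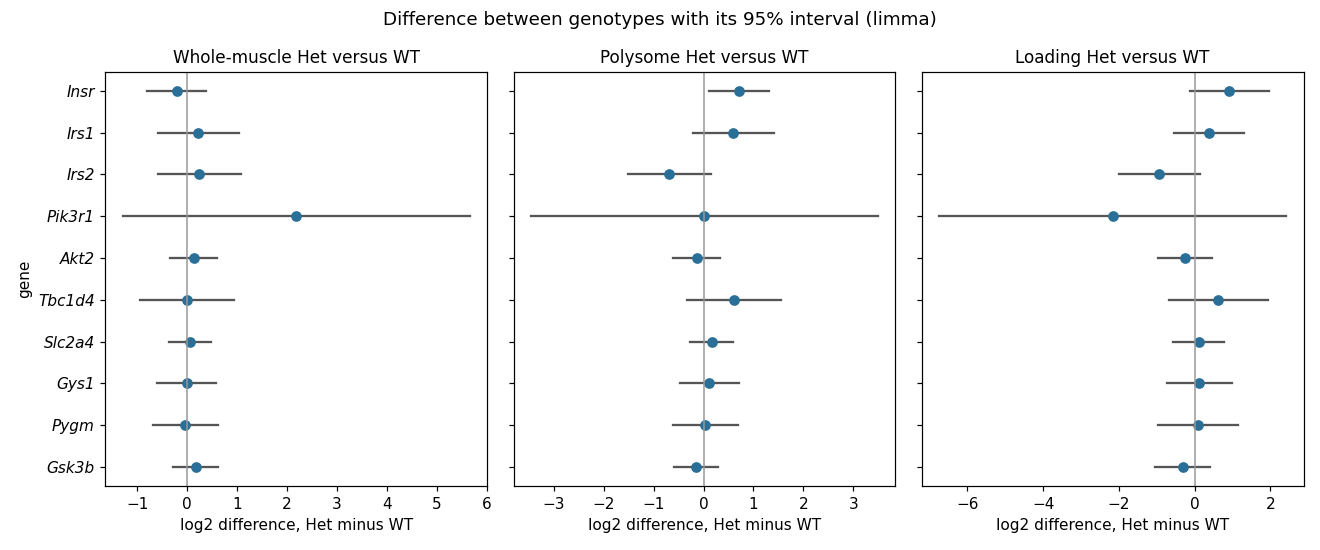
Het minus WT differences (log2) of the 10 genes in whole muscle, polysomes and loading, with 95% intervals from the limma fits. The Insr interval in polysomes, 0.12 to 1.30, lay above 0, and the Pik3r1 intervals are wide because of 1 Het whole-muscle array.

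The insulin receptor gene Insr was read at chr8:3151667-3151726 (minus strand), near the 3′ end of its message. In whole muscle it measured 5.70, 6.16 and 5.40 in WT mice 1 to 3 and 5.81, 5.63 and 5.20 in Het mice. In polysomes it measured 5.04, 4.83 and 5.44 in WT and 5.58, 5.95 and 5.90 in Het. The genotypes overlapped in whole muscle, and in polysomes every Het value lay above every WT value. The polysome difference was 0.71 ± 0.27 (SE; 1.64-fold, p = 0.0234, adjusted p = 0.283, exact permutation p = 0.1), and the whole-muscle difference -0.21 ± 0.27 (adjusted p = 0.934). With the mouse number as a replicate block, the polysome difference was also not called (adjusted p = 0.33). The genotypes are different mice, so a shared number does not make them a pair, and no conclusion is drawn from that block. Without the arrays that stand apart the polysome difference was 0.57 (adjusted p = 0.426). It was smaller with other background handling, 0.33 after normexp correction and 0.28 in the authors' table. The probe was well above background on 2 of 3 arrays in WT polysomes and in Het whole muscle.

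The loading of Insr was -0.66, -1.33 and 0.04 in WT and -0.23, 0.33 and 0.70 in Het. The groups overlapped, and the difference of 0.92 ± 0.44 had adjusted p = 0.351. It was 0.58 without WT mouse 2, 0.48 after normexp correction, 0.33 in the authors' table and -0.08 with array brightness as a covariate. The other Insr probes, which lie further 5′, were dim. A_55_P2172566 was not well above background on any WT polysome array and was at least 1.62-fold brighter in WT whole muscle than there (adjusted p = 0.335). Without the arrays that stand apart the WT polysome difference of A_55_P2172566 was -1.01 (adjusted p = 0.0413). That call is not read as a result, since the probe was tested only through WT whole muscle, where it was higher. A_55_P2173927 was at least 1.24-fold brighter in Het polysomes than in Het whole muscle, where no array was well above background. Such a bound sets the bright group's mean against the lowest signal well above background on each array of the dim group, or the dim probe's own value if higher. It compares group means and leaves out the spread between mice. Each of these dim probes was tested only because its brighter group was well above background on all its arrays.

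Irs1, an adaptor that links the receptor to PI3-kinase, measured 8.90, 9.39 and 9.996 in WT whole muscle, 9.50, 9.97 and 9.47 in Het whole muscle, 9.05, 8.31 and 9.30 in WT polysomes and 9.36, 10.05 and 9.04 in Het polysomes. The genotypes overlapped in whole muscle and in polysomes. Het minus WT was 0.22 ± 0.37 in whole muscle and 0.60 ± 0.37 in polysomes (adjusted p = 0.968 and 0.435), with WT polysome 2 the lowest of the 12 values. The polysome difference was 0.31 without the arrays that stand apart. Its probes differed in direction. From whole muscle to polysomes in WT the brightest probe moved by -0.54 (adjusted p = 0.197), and A_52_P171212, which lies 3872 bases further 5′, by 1.47 (adjusted p = 0.0313). Leaving out the arrays that stand apart, these were -0.27 and 0.94 (adjusted p = 0.531 and 0.0395).

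In whole muscle Irs2, the other adaptor of the receptor, measured 8.69, 8.96 and 8.96 in WT and 8.83, 9.25 and 9.26 in Het. In polysomes it measured 10.05, 11.73 and 10.39 in WT and 9.95, 9.78 and 10.37 in Het. All 6 mice had more signal in polysomes. WT polysome 2, with 11.73, was the highest of all. The WT loading values were 1.36, 2.76 and 1.43, and the Het values 1.13, 0.53 and 1.11, so no Het value reached the lowest WT value.

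In WT the Irs2 polysome excess was 1.85 ± 0.32 (3.61-fold, 95% interval 1.1 to 2.61, adjusted p = 0.0141), and in Het 0.92 ± 0.32 (1.90-fold, 95% interval 0.17 to 1.68, adjusted p = 0.115). The genotype difference in loading, -0.93 ± 0.45, had adjusted p = 0.356 and exact permutation p = 0.1. It moved to -0.28 without the arrays that stand apart, to -0.47 without WT mouse 2 and to -0.15 with array brightness as a covariate. The WT excess without the arrays that stand apart was 1.40 (adjusted p = 0.0167) and the Het excess 1.12 (adjusted p = 0.0440). In polysomes themselves Het minus WT was -0.69 ± 0.38 (adjusted p = 0.392), and -0.19 without those arrays. Irs2 was read by a single probe, so its position effect could not be measured within the gene.

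Pik3r1 encodes the regulatory subunit of PI3-kinase that binds the adaptors. It measured 5.48, 5.23 and 5.52 in WT whole muscle, 4.96, 12.80 and 5.03 in Het whole muscle, 5.74, 5.96 and 6.24 in WT polysomes and 5.79, 6.06 and 6.15 in Het polysomes. A single spot made the value of 12.80. Its median signal was 2373.5 units over 36 pixels, with a pixel SD of 278.6 and no outlier mark from the scanner software, where the same spot gave 54 to 189 on the other 15 arrays. The Het minus WT difference in whole muscle was 2.19 ± 1.58 with this spot and -0.41 without Het mouse 2, and in loading -2.17 ± 1.95 and 0.40. Without it, the polysome excess in Het was 0.97 (adjusted p = 0.159), and in WT the loading values were 0.26, 0.72 and 0.72.

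Akt2, the AKT kinase that carries the insulin signal to glucose uptake, measured 11.06, 11.26 and 11.26 in WT whole muscle, 11.39, 11.40 and 11.18 in Het whole muscle, 11.03, 10.84 and 11.14 in WT polysomes and 10.73, 11.25 and 10.62 in Het polysomes. Loading was below 0 in all 6 mice, from -0.43 to -0.04 in WT and from -0.66 to -0.15 in Het. The mean loading of -0.19 ± 0.21 in WT and -0.46 ± 0.21 in Het was not called (adjusted p = 0.537 and 0.204). The coding probe A_55_P2066523 had a mean loading of -0.82 in WT (adjusted p = 0.161), where WT mouse 2 had the highest value (0.33), and -0.83 in Het (adjusted p = 0.197). Leaving out the arrays that stand apart, it was called lower in WT polysomes (-1.39, adjusted p = 0.0249), while the brightest probe gave -0.08 (adjusted p = 0.835). The interval of the polysome Het minus WT difference ran from -0.61 to 0.34. Of its other probes, A_66_P135179 was not well above background in any Het whole-muscle array and was at least 1.29-fold brighter in WT whole muscle (adjusted p = 0.733).

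**Figure D4:**
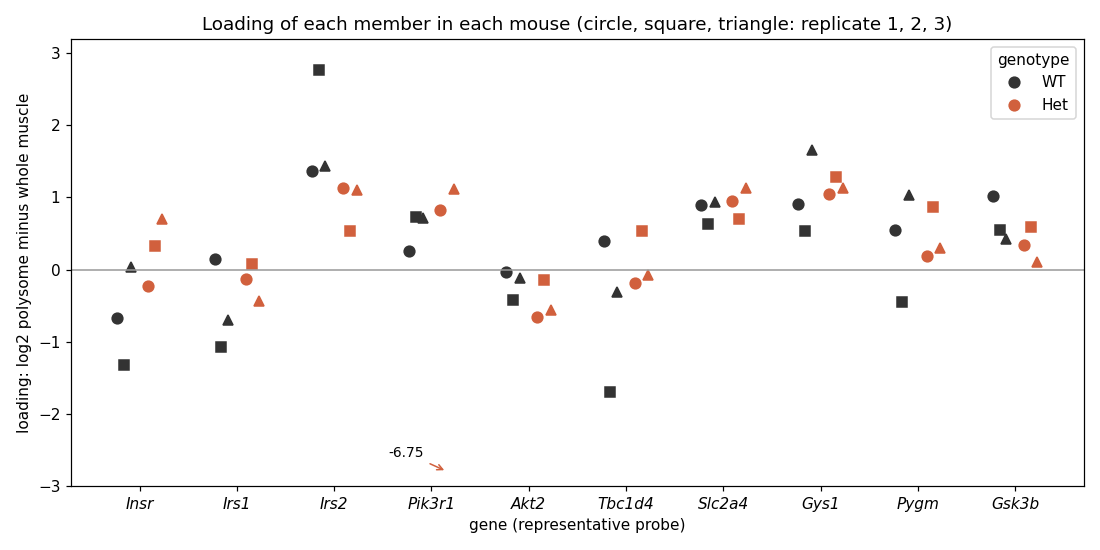
Loading (log2 difference, polysome minus whole muscle, within a mouse) of the 10 genes in the 3 WT and 3 Het mice, with the Pik3r1 value of Het mouse 2 (-6.75) drawn as an arrow. Slc2a4, Gys1, Irs2 and Gsk3b lay above 0 in all 6 mice, Akt2 below 0 in all 6, and Irs2 in WT lay above Irs2 in Het.

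Tbc1d4, the AKT substrate that restrains GLUT4 vesicles, measured 6.37, 6.89 and 7.26 in WT whole muscle, 7.21, 6.50 and 6.77 in Het whole muscle, 6.77, 5.20 and 6.95 in WT polysomes and 7.03, 7.04 and 6.69 in Het polysomes. WT polysome 2 was the lowest array. Het minus WT was -0.01 ± 0.43 in whole muscle and 0.61 ± 0.43 in polysomes (adjusted p = 0.999 and 0.473). The polysome difference was 0.06 without the arrays that stand apart. Loading was 0.40, -1.69 and -0.31 in WT and -0.18, 0.54 and -0.08 in Het, and the groups overlapped. The coding probe A_52_P381430 was dimmer, well above background on 7 of the 12 arrays, and its WT polysome difference of -0.13 (adjusted p = 0.899) included a loading of 1.54 in WT mouse 2. Without the arrays that stand apart its WT polysome difference was -0.97 (adjusted p = 0.0480), where the brightest probe gave 0.04 (adjusted p = 0.924). A_52_P381430 was tested only because WT whole muscle, where it was higher, was well above background on all 3 arrays. Its lower value in WT polysomes is therefore not read as a result.

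Slc2a4, the gene of the insulin-responsive glucose transporter GLUT4, was read by 10 copies of 1 probe (chr11:69756073-69756132, minus strand), whose SD on an array was 0.056 to 0.109. It measured 12.52, 12.90 and 12.74 in WT whole muscle and 12.86, 12.81 and 12.67 in Het whole muscle. In polysomes it measured 13.41, 13.54 and 13.68 in WT and 13.81, 13.51 and 13.80 in Het. All 6 polysome values lay above all 6 whole-muscle values. Loading was 0.89, 0.64 and 0.93 in WT and 0.95, 0.70 and 1.13 in Het.

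The Slc2a4 polysome excess was 0.82 ± 0.20 in WT (1.77-fold, 95% interval 0.34 to 1.30, adjusted p = 0.0323) and 0.93 ± 0.20 in Het (1.90-fold, 95% interval 0.45 to 1.40, adjusted p = 0.0428). Het minus WT was 0.06 in whole muscle (95% interval -0.37 to 0.48), 0.16 in polysomes (-0.27 to 0.59) and 0.10 in loading (-0.57 to 0.78). A difference between genotypes of up to about these bounds cannot be told from 0 with 3 mice per group. Over 19 other ways of processing the data the WT excess ranged from 0.49 to 0.97 and the Het excess from 0.50 to 1.07, positive in all 19, and passed the threshold in 8 and 7 of them. Scaling to the 75th percentile gave the lowest values, 0.49 (adjusted p = 0.142) and 0.50 (adjusted p = 0.194). Within slides 1 and 2 it was 0.73 and 0.97 in WT and 1.07 and 0.79 in Het. Adipocytes also use Slc2a4, and 3 of 6 adipocyte markers tested were called higher in WT polysomes than in WT whole muscle and 2 of 6 in Het. Their part in the Slc2a4 values was not tested.

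Gys1, muscle glycogen synthase, which adds glucose to glycogen chains, was read by its brightest probe at chr7:52711790-52711849 (plus strand). It measured 11.67, 11.33 and 10.83 in WT whole muscle, 11.27, 11.12 and 11.43 in Het whole muscle, 12.59, 11.86 and 12.48 in WT polysomes and 12.32, 12.40 and 12.56 in Het polysomes. Loading was 0.92, 0.53 and 1.65 in WT and 1.05, 1.29 and 1.13 in Het, above 0 in all 6 mice. The excess was 1.03 ± 0.26 in WT (2.05-fold, adjusted p = 0.0328) and 1.16 ± 0.26 in Het (2.23-fold, adjusted p = 0.0438). Het minus WT was -0.01 ± 0.27 in whole muscle, 0.11 ± 0.27 in polysomes (95% interval -0.47 to 0.70) and 0.12 ± 0.36 in loading (-0.74 to 0.98).

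A second Gys1 probe, A_55_P2026315 at chr7:52711158-52711217, lies 632 bases 5′ of the first and gave another picture. It measured 9.86, 9.28 and 9.27 in WT whole muscle, 8.32, 8.55 and 8.91 in Het whole muscle, 7.41, 8.84 and 8.19 in WT polysomes and 8.60, 9.06 and 9.48 in Het polysomes. WT polysomes were lower than WT whole muscle in all 3 mice (-1.32 ± 0.37, adjusted p = 0.0440), where the brightest probe was higher. In Het its loading was 0.28, 0.51 and 0.57, and in WT -2.45, -0.44 and -1.08. Whole-muscle values of this probe did not overlap between genotypes (difference -0.88, adjusted p = 0.568, exact permutation p = 0.1). Averaging both probes turned the Gys1 polysome excess in WT from 1.03 to -0.14 (adjusted p = 0.697), so the WT direction held for the brightest probe and not for the mean of both.

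Leaving out any mouse other than WT mouse 2 ended the Slc2a4 and Gys1 calls. In WT adjusted p ran from 0.0520 to 0.117 for Slc2a4 and 0.0522 to 0.127 for Gys1. In Het it ran from 0.0553 to 0.231 and 0.0527 to 0.211, while the excess stayed between 0.72 and 1.21. The spread is pooled over both genotypes, so leaving out a Het mouse changes the WT test but not the WT excess. Without 1 Het mouse, 10.2% to 16.3% of all probes were called in WT, against 21.1% with all mice. In Het it was 0% to 0.00505%, against 7.33%. Without the arrays that stand apart both calls held in WT (Slc2a4 0.91, adjusted p = 0.0419, and Gys1 1.29, adjusted p = 0.0275) and both ended in Het (Slc2a4 1.04, adjusted p = 0.0513, and Gys1 1.09, adjusted p = 0.0635). The Irs2 call in WT ended without WT mouse 3 (2.06, adjusted p = 0.0526) and held without each of the other 5 mice. Over the same 19 ways of processing the Irs2 excess in WT passed the threshold in 13 and ranged from 1.40 to 2.10, and the Gys1 excess passed in 7 in WT and 6 in Het. Marker lists moved with these results. From whole muscle to polysomes, 3 of 7 skeletal fibre markers were called lower in WT and 0 of 7 in Het. Slow fibre markers went the other way, with 3 of 6 called higher in WT and 2 of 6 in Het. Immune markers were called higher in 2 of 6 in WT and 1 of 6 in Het, endothelial markers in 0 of 5 and 2 of 5, and red blood cell markers in 1 of 5 and 0 of 5. The part of these cells in the results was not tested.

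Gsk3b, the kinase that inhibits glycogen synthase until AKT2 inactivates it, measured 9.71, 10.19 and 10.04 in WT whole muscle, 10.08, 10.07 and 10.30 in Het whole muscle, 10.73, 10.74 and 10.47 in WT polysomes and 10.42, 10.66 and 10.40 in Het polysomes. All 6 polysome values lay above all 6 whole-muscle values. The excess was 0.67 ± 0.22 in WT (1.59-fold, adjusted p = 0.0722) and 0.35 ± 0.22 in Het (adjusted p = 0.339). The genotype difference in loading was -0.32 ± 0.31 (adjusted p = 0.614). The most 3′ probe, A_66_P104190, moved the other way in WT, by -1.09 (adjusted p = 0.115), with the lowest of its 12 values, 5.24, on WT polysome 2. Leaving that array out with the others that stand apart gave -0.37 (adjusted p = 0.352). The coding probe A_51_P514412, printed above, had a mean WT loading of -0.63 (adjusted p = 0.437), with single mice from -2.12 to 1.23 and the highest in WT mouse 2. It was called lower in WT polysomes without the arrays that stand apart (-1.57, adjusted p = 0.0269), opposite to the brightest probe, which gave 0.73 (adjusted p = 0.0994) there. Its genotype difference in loading was 0.84 (adjusted p = 0.599), and 1.71 (adjusted p = 0.152) without those arrays.

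Pygm, muscle glycogen phosphorylase, which releases glucose from glycogen, measured 15.40, 15.46 and 14.73 in WT whole muscle, 15.39, 14.97 and 15.10 in Het whole muscle, 15.95, 15.01 and 15.76 in WT polysomes and 15.58, 15.84 and 15.40 in Het polysomes. Loading was 0.55, -0.45 and 1.03 in WT and 0.19, 0.87 and 0.30 in Het. It was above 0 in 5 of 6 mice, and WT mouse 2 was the exception. No Pygm comparison was called. Het minus WT was -0.04 ± 0.30 in whole muscle, 0.04 ± 0.30 in polysomes and 0.08 ± 0.45 in loading. Leaving out the arrays that stand apart, the last 2 values were -0.24 and -0.54, and the polysome excess in WT was 0.79 (adjusted p = 0.0721), against 0.38 (adjusted p = 0.416) with them.

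Monosomes were measured in only 2 mice per genotype, for which the smallest exact permutation p is 0.333. Of the 10 genes, 0 were called between genotypes by limma over 16 arrays (0.499% of 20250 probes were), and 3 passed the methods' threshold (28.6% of probes did). These 3 were Insr (4.49 and 2.32 in WT, 5.41 and 5.48 in Het, difference 2.04, adjusted p = 0.0841), Irs1 (8.84 and 6.40 against 9.23 and 9.09, difference 1.54, adjusted p = 0.129) and Tbc1d4 (5.98 and 1.68 against 6.33 and 5.75, difference 2.21, adjusted p = 0.141). In each the low WT value came from WT monosome 2. The Insr and Tbc1d4 probes were well above background on only 1 of the 2 WT monosome arrays, so their differences rest on a value near background. Without WT mouse 2 the differences were 0.95, 0.32 and 0.06.

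Polysomes against monosomes of the same 4 mice gave 0 called genes (0% of probes) and 3 at unadjusted p under 0.05, where 41.1% of probes passed. Gys1 was 1.02 ± 0.28 higher in polysomes (2.03-fold, adjusted p = 0.0726), Slc2a4 0.81 ± 0.22 higher (1.75-fold, adjusted p = 0.0747) and Akt2 differed by -0.62 ± 0.21 (adjusted p = 0.102), each in 4 of 4 mice. Without the arrays that stand apart these were 1.31, 0.94 and -0.71, where WT mouse 1 was the only WT mouse left. No call is drawn from that fit.

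Around these genes, 103 others of the pathway were listed in 8 groups. Of them 102 were on the array and 89 were tested, each by its brightest probe. Between genotypes 0 of the 89 were called in whole muscle, polysomes or loading, and 2, 7 and 10 passed the methods' threshold, where 5.63%, 5.75% and 13.9% of all probes did. In polysomes 67 of 89 had a positive Het minus WT value and 22 a negative one, with a median of 0.27 against 0.04 over all genes. Over all tested probes 53% had a positive value. Without the arrays that stand apart it was 57 of 89, with a median of 0.13 against 0.01. The receptor and adaptor list went from 6 of 7 positive (median 0.30) to 3 of 7 (median -0.13) without them.

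Of the glycogen synthesis genes other than Gys1, which include glycogenin (Gyg), branching enzyme (Gbe1) and the glycogen-targeting subunits of protein phosphatase 1, all 13 tested had a positive Het minus WT value in polysomes (median 0.52). Without the arrays that stand apart it was 12 of 13, with a median of 0.19. Ppp1r3a, the main muscle targeting subunit, differed by 1.21 (adjusted p = 0.226) and Ppp1cb, a catalytic subunit, by 1.11 (adjusted p = 0.307), and by 0.79 and 0.42 without those arrays. Subunits of the AMP-activated kinase, which senses low energy and also drives glucose uptake, had positive values in 8 of 8 (median 0.43), and in 7 of 8 without those arrays (median 0.40). No gene of either group passed the adjusted threshold.

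**Figure D5:**
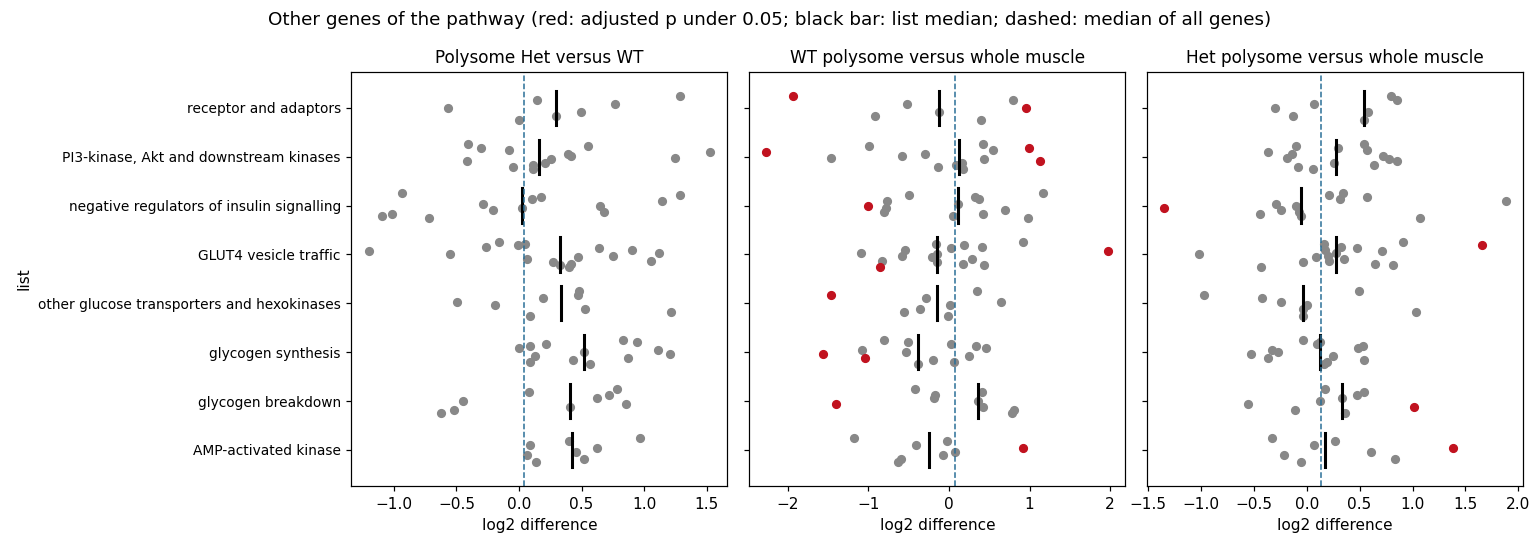
Differences (log2) of the tested genes of 8 pathway lists in 3 comparisons, with red points for adjusted p under 0.05, a black bar for each list's median and a dashed line for the median of all tested genes. Glycogen synthesis genes lie above 0 in all 13 cases in Het against WT polysomes, and 12 of 13 without the arrays that stand apart.

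From whole muscle to polysomes, 13 of the 89 genes were called in WT (5 higher, 8 lower) and 4 in Het (3 higher, 1 lower), smaller shares than the 21.1% and 7.33% of all probes. In WT the lower genes included Mtor, the kinase that couples nutrients to protein synthesis (-2.26 ± 0.31, adjusted p = 0.00721), the adaptor Gab1 (-1.94 ± 0.38, adjusted p = 0.0190), Ppp1r3a (-1.56 ± 0.35, adjusted p = 0.0257), hexokinase Hk1 (-1.46 ± 0.27, adjusted p = 0.0165) and the phosphorylase kinase subunit Phkb (-1.40 ± 0.24, adjusted p = 0.0141). Higher in WT polysomes were Rab8a, a small GTPase of GLUT4 vesicle traffic (1.98 ± 0.36, adjusted p = 0.0157), and Pik3r2, another PI3-kinase regulatory subunit (1.14 ± 0.28, adjusted p = 0.0323). In Het the AMP-activated kinase subunit Prkab2 was higher (1.39 ± 0.24, adjusted p = 0.0262), with Lnpep, a protein that travels in GLUT4 vesicles (1.66 ± 0.33, adjusted p = 0.0341), and phosphorylase kinase subunit Phkg1 (1.02 ± 0.23, adjusted p = 0.0437). Without the arrays that stand apart 9 of the 89 were called in WT (3 higher, 6 lower) and 5 in Het (4 higher, 1 lower), where 19% and 6.69% of all probes were. Of the genes named here, the calls of Pik3r2 in WT (0.92, adjusted p = 0.0862) and Phkg1 in Het (1.04, adjusted p = 0.0691) ended there, and Ppp1r3a in WT fell to -1.02 (adjusted p = 0.0330). Prkab2 was called higher there in both genotypes (1.14, adjusted p = 0.0279 in WT, and 1.24, adjusted p = 0.0407 in Het).

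Between genotypes, Mtor was 1.53 ± 0.31 higher in Het polysomes (adjusted p = 0.193) and 1.89 ± 0.44 higher in loading (adjusted p = 0.112). Gab1 loading was 2.74 ± 0.54 higher in Het (adjusted p = 0.109), with a whole-muscle difference of -1.45 ± 0.50 (adjusted p = 0.475). Lnpep also had a lower value in Het whole muscle (-1.48 ± 0.37, adjusted p = 0.324), with a loading difference of 1.48 ± 0.46 (adjusted p = 0.191). The other negative differences past the methods' threshold were those of Rab8a in polysomes (-1.20 ± 0.38, adjusted p = 0.254) and in loading (-1.26 ± 0.51, adjusted p = 0.278) and of the adaptor Irs3 in loading (-1.26 ± 0.39, adjusted p = 0.188). None of these passed the adjusted threshold. Leaving out the arrays that stand apart, Mtor was 1.55 in polysomes and 1.79 in loading, Gab1 loading 1.97 and its whole-muscle difference -0.95, Lnpep -0.96 in whole muscle and 1.03 in loading, Rab8a -0.76 and -0.45, and Irs3 -0.99.

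The genes whose signal followed a member most closely over the 12 arrays were Dnajb5, Ndufs3 and Pttg1 for Slc2a4 (Pearson r = 0.98 each), Phlda3, Bcat2 and Ddx39b for Gys1 (0.97, 0.96 and 0.96), Ank3, Tead1 and Gbp9 for Insr (0.93, 0.91 and 0.91) and Itgal, Gtf3c1 and Adrbk1 for Pygm (0.93 each). These values describe 12 arrays that share 4 groups, the same mice and 1 normalization.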

How the data were processed

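Each of 16 one-colour Agilent arrays held Cy3-labelled RNA of 1 mouse and 1 RNA kind. Per the file headers, Feature Extraction 11.0.1.1 measured 62976 spots (59305 non-control, design build mm9), and the deposited intensity is the processed signal after background subtraction. The authors' methods state a log2 transform and quantile normalization; their deposited log2 table follows the raw median signal of each array and served as an alternative.

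Here outlier spots were dropped, log2 spots of a probe averaged, and the 12 whole-muscle and polysome arrays quantile normalized (16 for monosomes). A probe was tested if some group had it well above background on all its arrays, with limma 3.58.1 (R 4.3.3) and p-values adjusted by Benjamini-Hochberg across every tested probe. Polysome and whole-muscle signals were compared within mice, since the design text says each mouse gave every kind of RNA and the labels number them. The correlation of same-numbered deviations was 0.058 to 0.485. Scripts were tested on simulated data. The number of arrays limits the precision. The p-values measure the spread between these mice.

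The 10 genes and the pathway lists were chosen with earlier results of these data known. All 10 are named by their brightest tested probe; other pathway genes are named where unadjusted p was under 0.05 and the log2 difference beyond 1, at most the 3 largest per list and direction (1 such gene is not reported here); and the 3 closest patterns are named for Slc2a4, Insr, Gys1 and Pygm. Accessions of 19 of the 20 probes matched RefSeq symbols (GRCm38.p6). Alternatives covered scaling, background, filter, probe choice, slide, brightness, pairing, mice left out and the methods' t-test.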

Additional observations from a re-analysis of the deposited data

Results flagged for a closer look

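Probe A_55_P2026315 of Gys1 had loadings of opposite sign in the genotypes, below 0 in all 3 WT mice and above 0 in all 3 Het mice, with a Het minus WT difference of 1.78 (p = 0.0108, adjusted p = 0.168 by limma, exact permutation p = 0.1). It was 1 of 20 member probes with opposite signs (5%), against 1403 of 19812 tested probes (7.08%). The brighter Gys1 probe, 632 bases 3′ of it, gave 0.12.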

How the results depend on the processing

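Of 1070 member differences under other processing, 885 stayed on their side of the threshold and, where not called, within 1 SE (some of these with a change of sign), 102 uncalled ones moved by more than 1 SE, 53 lost the threshold, 29 gained it and 1 reversed. The reversed one was Gys1 in WT polysomes against whole muscle, which the mean over its probes put at -0.14. Of the 70 differences, 41 uncalled ones changed sign under at least 1 alternative. The genes called in WT polysomes against whole muscle (3 of 10) fell to 1 with 75th percentile scaling or no filter (23.3% and 3.16% of all probes called), and to 0 with array brightness as a covariate (4.01%), within slide 1, within slide 2 (0% each) and by the methods' t-test (0.00505%), and leaving out 1 mouse gave 0 to 3 (3.84% to 17.3%). In Het (2 of 10) the number was 0 with 75th percentile scaling (10% of all probes), no filter (0.457%), slide as a term (1.52%), brightness, either slide alone or the methods' t-test (0% each), 1 with the mean over probes (9.4% of genes), the methods' threshold (13.7%) or without the arrays that stand apart (WT polysome 2, WT monosome 2 and Het whole muscle 2, a choice made after seeing the data, where the gene called was Irs2 and no longer Slc2a4 or Gys1, with 6.69% of all probes), and 0 to 3 leaving out 1 mouse (0% to 16.2%). Between genotypes, unadjusted p gave 1 gene in polysomes (15.2% of all probes) and 3 in monosomes (33%), the methods' threshold 3 in monosomes (28.6%), and leaving out 1 mouse 0 to 7 in monosomes, where 7 left only WT monosome 2 for WT and 53.2% of all probes were called. Polysomes against monosomes gave 3 with 75th percentile scaling (27.1% of all probes), without the arrays that stand apart (33.5%) or by unadjusted p (41.1%), 2 with no replicate block (26%), 1 by the methods' threshold (22%) and 0 to 6 leaving out 1 mouse (0% to 49.7%). The replicate block changed no call between genotypes (Insr in polysomes 0.71, adjusted p = 0.33), and without the pairing Slc2a4 was called in both genotypes (adjusted p = 0.0153 in WT and 0.0156 in Het). The median of all probes in loading was 0.17, and 0.07 under normexp. Where a left-out mouse leaves 1 sample, that sample is assumed to vary like the other groups. The causes were not tested. Dim probes, such as the 5′ Insr probes, limit what signal over background can show.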
